A study of Mus musculus with 18 samples.

Results

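The 10 genes described here belong to 3 arms of the interferon response: the Mx GTPases (Mx1 and Mx2), the viperin pair (Rsad2 and Cmpk2) and the ISG15 system (Isg15, Usp18, Ube2l6 and Herc6), with the tetherin gene Bst2 and the interferon-induced gene Ifi44 beside them. They were named without a threshold on measured values, as known interferon-induced genes, but with earlier results of these data known, and are 10 of the 34989 genes to which the deposited transcripts were summed. All 10 passed the filter on low counts. RNA was measured in 18 libraries of mouse heart, with 3 libraries of the left ventricle (LV) and 3 of the right ventricle (RV) after 0, 4 and 8 h of storage. All groups were hearts of C57B/L6 mice, 12 weeks old by the labels and younger by the study's methods. The hearts were flushed with HTK, a cardioplegic preservation solution, and kept cold in it for the stated time. They were then perfused ex vivo for 1 h with Krebs buffer. The 0 h group therefore shared the explantation, the flush and the perfusion, and differed from the others in the storage. Every comparison with 0 h in a ventricle used the same 3 libraries of 0 h.

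Interferons are secreted proteins that bind receptors on neighboring cells and, through receptor kinases and the transcription factors these activate, switch on a large group of antiviral genes. These factors bind the interferon-stimulated response element in their promoters. Mx proteins are GTPases that trap viral components, viperin makes a nucleotide that stops viral RNA synthesis, and ISG15 is a ubiquitin-like protein that is attached to other proteins by an enzyme cascade and removed by Usp18. In the heart such genes are known to be switched on by viral infection and by nucleic acids released from injured cells.

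RefSeq promoter windows, from 250 bases before the transcription start to 50 bases after it, matched 7 of the 10 genes, and Mx1, Mx2 and Usp18 had no window here. The search was for 2 copies of GAAA separated by 2 bases of any kind, on both strands, which is the core of the interferon-stimulated response element. Windows of 3 genes, Isg15, Rsad2 and Bst2, held it, against 3.44% of all 32851 windows, and those of Cmpk2, Ube2l6, Herc6 and Ifi44 did not. With 1 base between the copies, the windows of Isg15 and Ifi44 held a match, against 3.17% of all windows. The 250 bases before the start of Isg15, Rsad2 and Bst2 are shown because these 3 windows held the match with 2 bases between. With all libraries the increase of Rsad2 after 8 h in LV lay above the median of the 10 genes. That of Isg15 lay slightly above it, and that of Bst2 was the smallest. A relation of the match to the increase was not tested. Bases are written 5′ to 3′ on the strand of the gene, and the capitals mark the matches, which overlap each other in Isg15 (3 matches) and Bst2 (2 matches). A match describes the letters and shows no binding.
Isg15 (GRCm38.p6 chr4:156200819-156201068, minus strand): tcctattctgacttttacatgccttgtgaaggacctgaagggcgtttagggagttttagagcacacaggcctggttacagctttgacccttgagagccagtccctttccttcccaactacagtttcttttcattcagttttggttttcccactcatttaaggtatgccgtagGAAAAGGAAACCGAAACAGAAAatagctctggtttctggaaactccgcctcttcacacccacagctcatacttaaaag
Rsad2 (GRCm38.p6 chr12:26456453-26456702, minus strand): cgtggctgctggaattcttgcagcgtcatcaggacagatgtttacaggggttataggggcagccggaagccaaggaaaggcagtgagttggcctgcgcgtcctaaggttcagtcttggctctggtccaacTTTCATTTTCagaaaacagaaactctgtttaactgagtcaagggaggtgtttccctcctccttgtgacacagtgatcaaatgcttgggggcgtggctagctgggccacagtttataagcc
Bst2 (GRCm38.p6 chr8:71537473-71537722, minus strand): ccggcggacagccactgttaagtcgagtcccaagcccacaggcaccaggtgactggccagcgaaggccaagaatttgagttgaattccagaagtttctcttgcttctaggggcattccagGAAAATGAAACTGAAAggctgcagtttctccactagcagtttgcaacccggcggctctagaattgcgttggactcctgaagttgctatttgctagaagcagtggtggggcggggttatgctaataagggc
The matched stretch ran from base -78 to base -57 before the start of Isg15, from -120 to -111 in Rsad2 and from -130 to -115 in Bst2. The match of Rsad2 lay on the opposite strand and reads TTTC in the printed sequence.

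Libraries held between 22552581 and 46236771 estimated counts, with a median of 29981406. Levels are given as CPM, which are counts scaled to a TMM-adjusted library size, and as the authors' TPM where genes are compared with each other, since TPM takes transcript length into account. In every stored group the library numbered 3 stood apart from the other two in these genes, in both ventricles. The same 4 libraries were low in 4 Y-linked genes, with a summed level of 4.63 to 6.78 CPM, against 133 to 194 CPM in the other stored libraries. At 0 h the libraries numbered 2 were the low ones, at 5.10 and 5.15 CPM, and they were not raised in the 10 genes. The 0 h libraries numbered 3, at 150 and 146 CPM, were the highest in 9 of the 10 genes in each ventricle. They lay above the higher of the other libraries by a median of 1.13-fold in LV and 1.36-fold in RV. In the stored groups this median was 6.30-fold to 11.2-fold. The part of these differences in the results was not tested, and the storage results of the 10 genes are given with and without the stored libraries numbered 3. Those libraries were chosen after seeing that they stood apart in these genes. A smaller spread and smaller p-values without them follow in part from that choice. The study used mice of both sexes, and the labels give none for a library. They also do not say whether a number names a heart.

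Mx1 (ENSMUSG00000000386.15, chr16:97447035-97462907 of GRCm38) had the widest range of the 10 genes. Its level in LV was 0.62, 1.25 and 1.31 CPM at 0 h, 12.8, 8.71 and 105 CPM after 4 h, and 15.1, 16.95 and 175 CPM after 8 h, in libraries numbered 1, 2 and 3. In RV it was 0.82, 0.64 and 1.11 CPM at 0 h, 12.2, 8.79 and 99.0 CPM after 4 h, and 18.3, 25.1 and 232 CPM after 8 h. Every stored library lay above every 0 h library of its ventricle, and the library numbered 3 lay 8.16-fold to 10.3-fold above the next one in the stored groups. The 0 h values rest on 19.2 to 42.3 estimated counts a library. Mx2 (ENSMUSG00000023341.15, chr16:97535308-97560900), which lies 72400 bases away on the other strand with 2 quantified genes between, had 3.08, 4.59 and 5.76 CPM at 0 h in LV and 35.1, 60.5 and 372 CPM after 8 h. In RV it went from 2.13, 3.18 and 4.60 CPM to 42.3, 118 and 598 CPM, again without overlap.

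Both Mx genes are known to be defective in C57BL/6 mice, which make no working Mx protein. The GENCODE annotation calls the Mx2 transcript that took 87.6% of the gene's counts a polymorphic pseudogene. Of the Mx1 counts, 45.9% were assigned to transcripts annotated as protein coding and 54.1% to transcripts annotated for nonsense-mediated decay. These shares were 40.6% coding at 0 h, 49.95% at 4 h and 43.6% at 8 h, and the leading transcript held between 0% and 65.1% of the gene's counts in single libraries. In 8 of the 10 genes 1 protein-coding transcript held most of the counts, from 78.2% for Herc6 to 100% for Isg15, which has 1 annotated transcript.

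Rsad2 (ENSMUSG00000020641.16, chr12:26442746-26456452), which encodes viperin, had the highest CPM of the 10 genes in every stored library. In LV it was 14.3, 18.9 and 29.1 CPM at 0 h, 101, 74.7 and 1399 CPM after 4 h, and 167, 242 and 2175 CPM after 8 h. In RV it was 9.35, 13.9 and 27.0 CPM at 0 h, 88.0, 63.4 and 1424 CPM after 4 h, and 162, 445 and 2885 CPM after 8 h. Cmpk2 (ENSMUSG00000020638.8, chr12:26469204-26479837), which encodes a mitochondrial nucleotide kinase, starts 12751 bases from Rsad2 on the opposite strand. It followed the same order of libraries, with 6.44, 9.76 and 11.1 CPM at 0 h and 49.0, 72.9 and 769 CPM after 8 h in LV. In RV Cmpk2 went from 3.95, 6.84 and 10.9 CPM to 43.2, 126 and 920 CPM. The gap between the libraries numbered 3 and the next was widest in this gene, at 18.3-fold after 4 h in RV.

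Isg15 (ENSMUSG00000035692.6, chr4:156199424-156200818) encodes the ubiquitin-like modifier itself. In LV its level was 6.90, 5.77 and 6.56 CPM at 0 h, 41.5, 27.9 and 190 CPM after 4 h, and 55.3, 61.6 and 319 CPM after 8 h. In RV it was 6.37, 4.84 and 5.42 CPM at 0 h, 46.7, 30.2 and 211 CPM after 4 h, and 85.5, 126 and 566 CPM after 8 h. No stored library overlapped with 0 h. Usp18 (ENSMUSG00000030107.10, chr6:121245906-121270917), which removes ISG15 from its targets and dampens the interferon receptor, went from 2.62, 4.59 and 5.13 CPM at 0 h to 16.7, 20.2 and 201 CPM after 8 h in LV. In RV Usp18 went from 2.49, 3.18 and 4.34 CPM to 18.3, 38.6 and 274 CPM.

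The enzymes that attach ISG15 were measured as well. Ube2l6 (ENSMUSG00000027078.14, chr2:84798828-84810335), the conjugating enzyme, had 4.13, 4.73 and 6.22 CPM at 0 h, 7.18, 6.01 and 34.5 CPM after 4 h and 11.1, 10.4 and 63.2 CPM after 8 h in LV. At 4 h it overlapped with 0 h in LV and in RV, and at 8 h it did not. Herc6 (ENSMUSG00000029798.11, chr6:57581000-57664632), the main ISG15 ligase of the mouse, had 6.24, 8.20 and 8.56 CPM at 0 h and 25.5, 30.9 and 274 CPM after 8 h in LV. In RV the levels of Herc6 were 6.31, 6.77 and 8.26 CPM at 0 h and 26.2, 57.6 and 392 CPM after 8 h.

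Bst2 (ENSMUSG00000046718.8, chr8:71534255-71537456), which encodes tetherin, a membrane protein that holds budding viruses at the cell surface, had the smallest fitted change after 8 h with all libraries, and Ube2l6 had it without the stored libraries numbered 3. Its level in LV was 11.2, 12.1 and 13.7 CPM at 0 h, 19.4, 16.8 and 58.4 CPM after 4 h, and 29.8, 25.4 and 122 CPM after 8 h. In RV the lowest 4 h library, at 14.1 CPM, lay under the highest 0 h library, at 14.3 CPM, and the 8 h libraries were at 28.5, 29.7 and 172 CPM. Ifi44 (ENSMUSG00000028037.13, chr3:151730922-151749960), an interferon-induced gene with antiviral activity, went from 2.33, 4.56 and 4.79 CPM at 0 h to 12.5, 19.2 and 120 CPM after 8 h in LV. In RV Ifi44 was at 2.25, 3.45 and 3.66 CPM at 0 h and at 14.0, 28.1 and 170 CPM after 8 h.

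**Figure D1:**
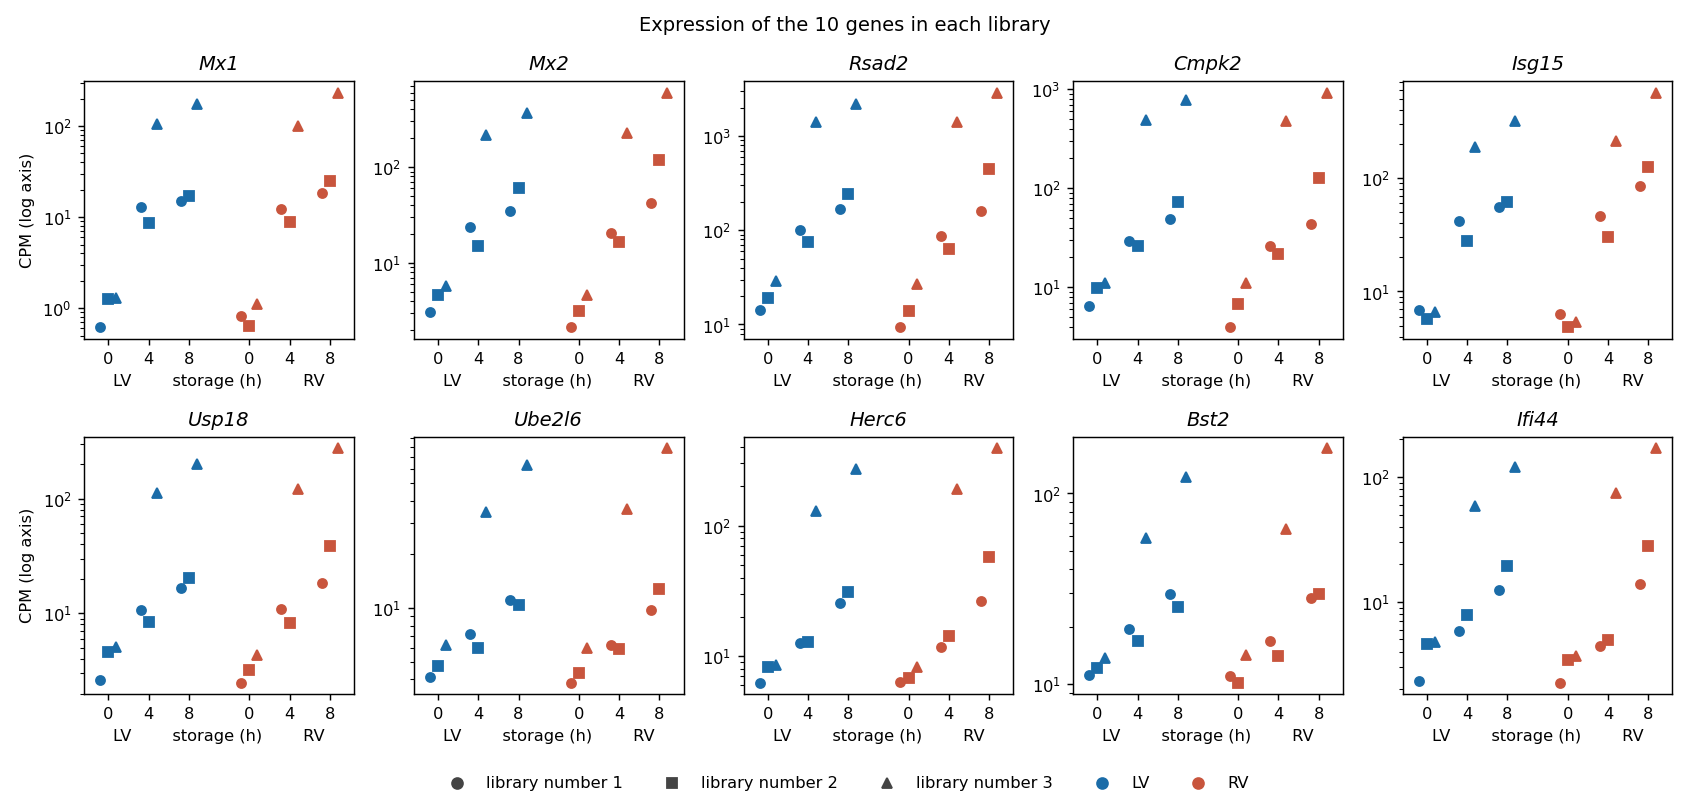
Level of each of the 10 genes in each of the 18 libraries, in CPM on a log axis, by hours of storage in LV (blue) and RV (red), with 1 marker shape for each library number. The triangles of the libraries numbered 3 sit highest in every stored group. At 0 h the 3 libraries lie closer together, and number 3 is the highest in 9 of the 10 genes in each ventricle. The highest 0 h library lies 1.20-fold to 2.11-fold above the lowest in LV and 1.31-fold to 2.88-fold in RV.

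Compared per transcript length, Bst2 was the first of the 10 genes in all 6 libraries at 0 h, with 24.0 to 28.0 TPM, and Isg15 the second in all 6, with 10.1 to 15.8 TPM. The TPM ranges of these 2 genes did not overlap at 0 h. After 8 h Isg15 was first in 5 of 6 libraries, with 104 to 900 TPM, and Rsad2 was first in the remaining one, with a range of 44.2 to 723 TPM that overlapped with that of Isg15. Bst2 was at ranks between 2 and 5, with 47.7 to 281 TPM. Mx1 was the last of the 10 in all 6 libraries at 0 h, with 0.28 to 0.99 TPM, and in 4 of 6 after 8 h, with 5.59 to 76.7 TPM. Over all 18 libraries, log2 CPM spanned 8.40 from the lowest to the highest library in Mx1 and 4.07 in Bst2.

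The first comparison asked how 4 h of storage differed from 0 h. A gene was called when its Benjamini-Hochberg adjusted p in the quasi-likelihood test of edgeR was under 0.1 and its fold change over 1.5. In LV all 10 genes had a higher fitted level after 4 h, and 1 of them, Isg15, was called, where 2.4% of all tested genes were called higher. Isg15 rose by 3.75 on the log2 scale (standard error 0.91, edgeR adjusted p = 0.0915). Mx1 had the largest estimate, 5.35 (standard error 1.38), and did not pass (edgeR adjusted p = 0.109). The median log2 fold change of the 10 genes was 3.59, against -0.0044 over all genes tested. With the stored libraries numbered 3 left out, 7 genes were called, against 4.5% of all genes. Mx1 then rose by 3.39 on the log2 scale (standard error 0.30, edgeR adjusted p = 0.0025) and Isg15 by 2.43 (standard error 0.18, edgeR adjusted p = 0.00192), and Ube2l6, Bst2 and Ifi44 were not called. The count was 0 without any 1 of the 3 libraries of 0 h, without LV 4 h number 1 or 3, and without LV 8 h number 1 or 2, and 6 without LV 8 h number 3. Calls over all genes moved too, from 349 to 414, 14 and 41 without LV 0 h number 1, 2 and 3. They were 72 and 78 without LV 4 h number 1 and 3, and 261, 255 and 669 without LV 8 h number 1, 2 and 3. In 9 of the 10 genes, all but Ube2l6, every 4 h library lay above every 0 h library, as in 12.9% of all tested genes.

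In RV, 4 of the 10 genes rose after 4 h by the same test, Mx1, Mx2, Rsad2 and Isg15, where 6.17% of all tested genes were called higher. The log2 fold change was 5.56 for Mx1 (standard error 1.37, edgeR adjusted p = 0.0469), 4.75 for Mx2 (1.30, edgeR adjusted p = 0.065), 5.002 for Rsad2 (1.49, edgeR adjusted p = 0.0825) and 4.13 for Isg15 (0.94, edgeR adjusted p = 0.0359). Same-numbered RV libraries at 0 and 4 h deviated together only weakly from their group means, with correlations of 0.111 to 0.269. Each heart had a single storage time, so a number names no heart across times. With the number as a block, Cmpk2 (log2 fold change 3.19, edgeR adjusted p = 0.0296) and Usp18 (2.70, edgeR adjusted p = 0.0407) were called as well, against 8.45% of all genes. The same 6 genes were called without the stored libraries numbered 3, against 8.1% of all genes, with 3.62 for Mx1 and 1.54 for Usp18. The median over the 10 genes was 3.99, against 0.0034 over all genes. Single libraries moved the count, which was 0 without RV 0 h number 2 or 3, 1 without RV 0 h number 1 or RV 4 h number 3, and 8 without RV 8 h number 3. Calls over all genes moved from 902 to 821, 235 and 273 without RV 0 h number 1, 2 and 3. They were 647 without RV 4 h number 3 and 1219 without RV 8 h number 3. Every 4 h library lay above every 0 h library in 8 of the 10 genes, all but Ube2l6 and Bst2, as in 15.1% of all tested genes.

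After 8 h in LV, 6 of the 10 genes rose against 0 h, Mx1, Mx2, Rsad2, Cmpk2, Isg15 and Bst2, where 5.46% of all tested genes were called higher. Mx1 rose by 6.06 on the log2 scale (standard error 1.42, edgeR adjusted p = 0.052), Rsad2 by 5.38 (1.45, edgeR adjusted p = 0.0768), Isg15 by 4.50 (0.94, edgeR adjusted p = 0.039) and Bst2 by 2.26 (0.67, edgeR adjusted p = 0.0963). The other 4, Usp18, Ifi44, Herc6 and Ube2l6, had estimates of 4.28, 3.71, 3.85 and 2.49, with edgeR adjusted p between 0.102 and 0.136. Without the stored libraries numbered 3, all 10 were called, against 4.74% of all genes, with smaller changes and smaller errors. The smaller errors follow from leaving out the libraries that stood apart in these genes. The change was then 3.95 for Mx1 (standard error 0.30, edgeR adjusted p = 3.7e-04), 3.17 for Isg15 (0.18, edgeR adjusted p = 1.5e-04), 1.87 for Herc6 (0.16, edgeR adjusted p = 5.8e-04) and 1.09 for Ube2l6 (0.19, edgeR adjusted p = 0.0159). With only the libraries in which Y-linked genes were expressed, 2 a group, all 10 were called after 8 h, against 2.96% of all genes in LV and 8.28% in RV, and 5 after 4 h in each ventricle, against 1.85% and 5.32%. That fit left out the same stored libraries numbered 3, and the 0 h libraries numbered 2. It is therefore no independent result, and its errors depend on the same choice. With all other libraries kept, the count was 0 without any 1 of the 3 libraries of 0 h, 1 without LV 8 h number 3, and 10 without LV 8 h number 2 or LV 4 h number 3. Calls over all genes moved too, from 795 to 503, 130 and 234 without LV 0 h number 1, 2 and 3. They were 347 without LV 8 h number 3, 1422 without LV 8 h number 2 and 883 without LV 4 h number 3. All 10 genes had every 8 h library above every 0 h library, as had 15.5% of all tested genes.

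After 8 h in RV all 10 genes rose against 0 h, where 13% of all tested genes were called higher. The log2 fold change ran from 2.75 for Bst2 (standard error 0.82, edgeR adjusted p = 0.0578) to 6.79 for Mx1 (1.43, edgeR adjusted p = 0.0161), and the smallest adjusted p was that of Isg15 (5.59, standard error 1.00, edgeR adjusted p = 0.00869). The estimate of Mx1 held rank 10 among the 14622 genes tested. The median of the 10 was 5.35, against -0.072 over all genes. Without the stored libraries numbered 3 all 10 were still called, against 10.9% of all genes, from 1.25 for Ube2l6 (standard error 0.23, edgeR adjusted p = 0.0081) to 4.64 for Mx1 (0.28, edgeR adjusted p = 1.1e-04). The median was then 3.32. With the number as a block all 10 were called as well, against 15.5% of all genes. The count was 4 without RV 0 h number 1, RV 0 h number 3 or RV 8 h number 3, and 3 without RV 0 h number 2. Over all genes the calls moved from 1896 to 1444, 1207, 1329 and 1025 in these fits, in the same order. All 10 genes had every 8 h library above every 0 h library, as had 18.5% of all tested genes. DESeq2 called 2 of the 10 after 4 h and 5 after 8 h in LV, against 4.8% and 8.1% of all genes, and gave no p to 5 of them. In RV it called 7 and 8, against 8.27% and 15.3%, and gave no p to 2.

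**Figure D2:**
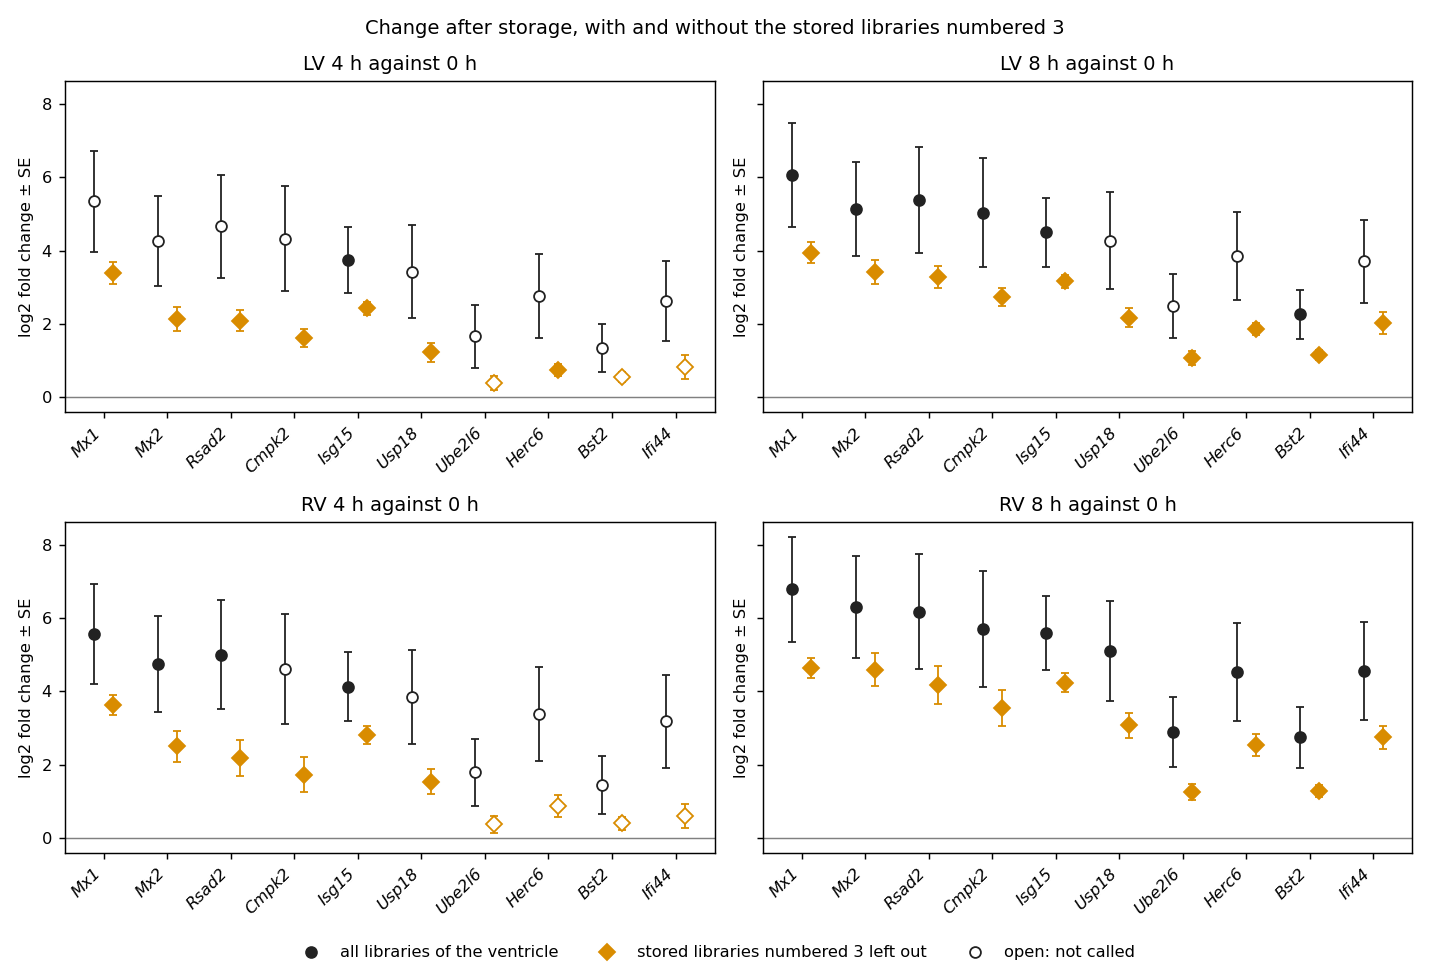
Log2 fold change against 0 h with its standard error for each gene in 4 panels, 1 for each ventricle and storage time, from all libraries of the ventricle (black circles) and without the stored libraries numbered 3 (orange diamonds), with open symbols for changes that were not called. The orange estimates lie lower and have shorter error bars, and at 8 h all 10 are filled in both ventricles.

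Whether storage for 8 h gave more than storage for 4 h was compared directly. No member was called in LV or in RV at 8 h against 4 h by edgeR, 0 of the 10 had an unadjusted p under 0.05 in either ventricle, and DESeq2 called 0 of the 5 and 8 members to which it gave a p. Of all tested genes 0% were called higher in either ventricle by edgeR, and 0.0549% in LV and 0.226% in RV by DESeq2. The median log2 difference of the 10 genes was 0.84 in LV and 1.24 in RV, against 0.025 and 0.014 over all genes. The 8 h and 4 h libraries overlapped in every member, because the 4 h library numbered 3 lay above the 8 h libraries numbered 1 and 2. Same-numbered libraries at 4 and 8 h deviated together in both ventricles. Each heart had a single storage time, so these libraries came from different hearts and are paired by number only. Within these 3 pairs all 10 genes were higher at 8 h, in LV and in RV. The 10 genes share those 3 pairs and are no replicates of each other. The share of all genes higher in all 3 pairs was not computed. The ratio of 8 h to 4 h had a median of 1.76 in LV and 2.23 in RV. It was largest in the RV pair numbered 2, with 7.09 for Mx2, 7.02 for Rsad2 and 4.18 for Isg15. With the number as a block 0 genes were called, and 1 of the 10 in LV and 8 of the 10 in RV had an unadjusted p under 0.05 in edgeR, as had 1838 of 14564 and 2263 of 14622 genes. Without the stored libraries numbered 3 the count was also 0, against 0.0409% of all genes in LV and 0.0136% in RV, with 9 of the 10 in LV and all 10 in RV at an unadjusted p under 0.05 in edgeR, as were 1341 of 14674 and 845 of 14685 genes. The 4 and 8 h ranges of all 10 overlapped, and every 8 h library lay above every 4 h library in 5.38% of the genes of LV and 6% of those of RV.

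LV and RV were compared at each storage time, with all 18 libraries in 1 model. Without pairing, no member was called by edgeR or DESeq2 at 0, 4 or 8 h, and 0 of the 10 had an unadjusted p under 0.05 at any of the 3 times. Of all tested genes 0.159%, 0.0133% and 0.0331% were called at 0, 4 and 8 h by edgeR, and 0.411%, 0.166% and 1.25% by DESeq2, which gave no p to 2 of the 10. LV and RV libraries of the same time and number deviated together, and within these pairs the order of the ventricles turned with storage. At 0 h the level was higher in LV in 27 of 30 gene and pair combinations, and in all 3 pairs for 7 genes. At 4 h it was higher in RV in 14 of 30, and at 8 h in 26 of 30, in all 3 pairs for Mx1, Mx2, Isg15, Usp18, Herc6 and Ifi44. These combinations come from 3 pairs at each time, shared by the 10 genes, and are no replicates. The share of all genes with the same order was not computed. The median ratio of RV to LV was 0.843 at 0 h, 0.99 at 4 h and 1.35 at 8 h.

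Isg15 showed this most evenly. Its RV to LV ratio in the pairs numbered 1, 2 and 3 was 0.924, 0.839 and 0.826 at 0 h, 1.12, 1.08 and 1.11 at 4 h, and 1.55, 2.05 and 1.77 at 8 h. For Mx2 it was 0.693, 0.693 and 0.80 at 0 h and 1.21, 1.94 and 1.61 at 8 h. The 3 pairs of 8 h did not overlap with those of 0 h in either gene, nor in Rsad2, Usp18, Herc6 and Ifi44. They overlapped in Mx1, Cmpk2, Ube2l6 and Bst2, and the share of all genes without overlap was not computed. Rsad2 lay under 1 in the 8 h pair numbered 1, at 0.972, and was at 1.84 and 1.33 in the other pairs.

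**Figure D3:**
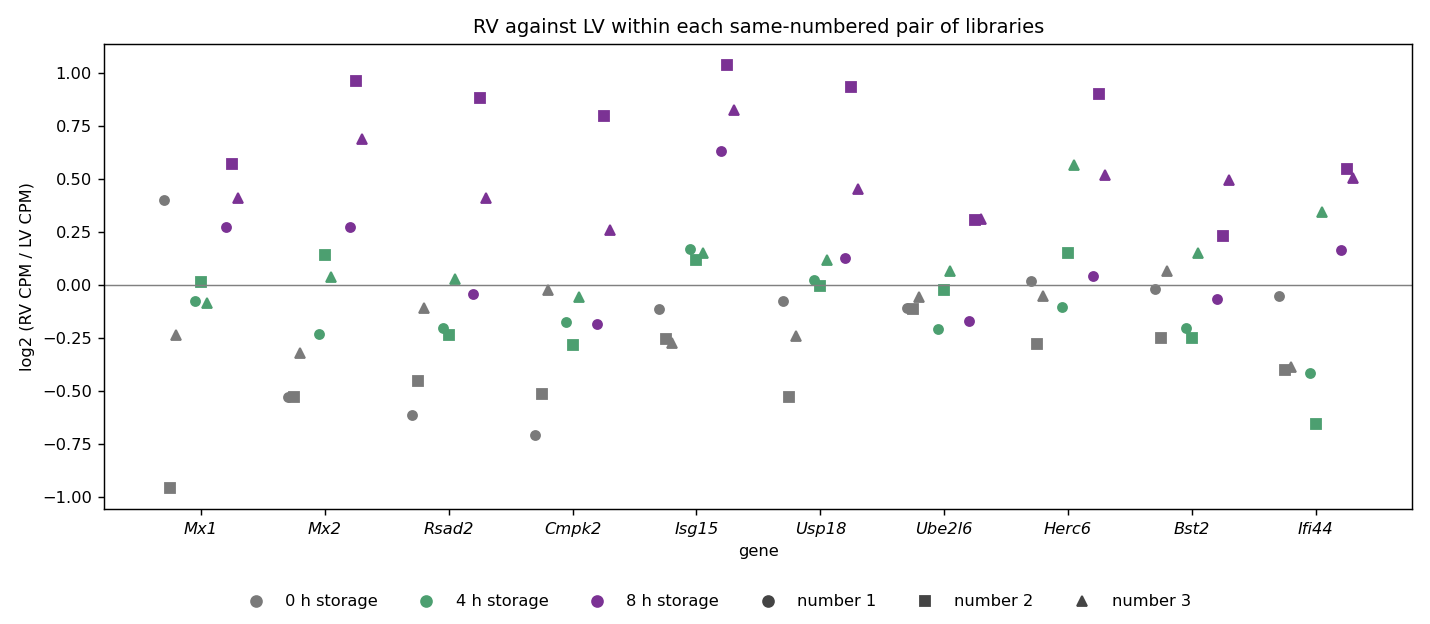
Log2 ratio of RV to LV level for each gene in each same-numbered pair, at 0 h (grey), 4 h (green) and 8 h (purple), with 1 marker shape for each number. Most grey points lie under 0 and most purple points above it, with Isg15 between 0.63 and 1.04 at 8 h.

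With the pair as a block, Isg15 and Mx2 were lower in LV than in RV at 8 h, 2 of the 10 genes, where 6.53% of all tested genes were called lower. The log2 difference, LV minus RV, was -0.83 for Isg15 (standard error 0.079, edgeR adjusted p = 2.4e-04) and -0.64 for Mx2 (0.11, edgeR adjusted p = 0.00264). A further 4 genes, Mx1, Usp18, Herc6 and Ifi44, had an adjusted p under 0.1 and a fold change under 1.5, as had Rsad2 (edgeR adjusted p = 0.0711). Mx2 fell under the fold threshold without the 8 h pair numbered 2, at -0.48 (edgeR adjusted p = 0.0173), and 5 genes passed without the 8 h pair numbered 1. At 0 h and 4 h the block gave 0 calls among the 10 in edgeR, against 1.85% and 1.93% of all genes, and an unadjusted p under 0.05 in 3 and 0 of them.

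The difference between the ventricles in the change from 0 h to 8 h was tested as an interaction. Without the block 0 of the 10 genes passed in edgeR or DESeq2, against 0% and 0.0133% of all genes, and 0 had an unadjusted p under 0.05. With the block the change was smaller in LV for 4 genes, where 4.72% of all tested genes were called in that direction. The difference, LV minus RV, was -1.04 for Isg15 (standard error 0.12, edgeR adjusted p = 0.00131), -1.09 for Mx2 (0.19, edgeR adjusted p = 0.00652), -0.79 for Usp18 (0.20, edgeR adjusted p = 0.0397) and -0.80 for Rsad2 (0.22, edgeR adjusted p = 0.0536). Isg15 and Mx2 passed with any 1 of the 9 pairs left out. Rsad2 did not pass without the 0 h pair numbered 1 or 2 or the 8 h pair numbered 2 (edgeR adjusted p = 0.199, 0.157 and 0.104), nor Usp18 without the 0 h pair numbered 2 or 3 (edgeR adjusted p = 0.158 and 0.112). For the change from 0 h to 4 h, 0 of the 10 passed in edgeR with the block (against 0.305% of all genes) or without it (0%), and 2 and 0 had an unadjusted p under 0.05. DESeq2 passed 0, against 0% of all genes.

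Genes of the same pathway were read from lists written with earlier results of these data known. Of the 7 interferon genes listed, only Ifnb1, which encodes interferon beta, passed the filter on low counts. Its level was 1.38, 0.14 and 0.093 CPM at 0 h, 5.22, 3.22 and 1.18 CPM after 4 h and 1.85, 1.36 and 0.72 CPM after 8 h in LV. In RV it was 0.99, 0.17 and 0.033 CPM, then 4.82, 2.26 and 0.17 CPM, and 2.71, 1.91 and 0.78 CPM. The library numbered 1 was the highest and the one numbered 3 the lowest in every group, while the library numbered 3 was the highest of each stored group in the 10 genes. With all libraries and no block Ifnb1 was not called (log2 fold change 2.48 after 4 h in LV, edgeR adjusted p = 0.22, and 2.58 in RV, edgeR adjusted p = 0.221). With the block it was called in RV at 4 h (2.59, edgeR adjusted p = 0.0399) and 8 h (2.66, edgeR adjusted p = 0.026). In LV the block called it at 4 h (2.81) and not at 8 h (1.62). Same-numbered LV libraries of 0 h and of the stored groups did not deviate together in every pair. Without the stored libraries numbered 3 and with no block, Ifnb1 was called in RV at 4 h (3.12, edgeR adjusted p = 0.0455) and 8 h (2.47, edgeR adjusted p = 0.0946), and not in LV (2.83, edgeR adjusted p = 0.107, and 1.43, edgeR adjusted p = 0.398).

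The genes that carry the signal came next, to be read against the 5.46% of all genes in LV and 13% in RV that were called higher after 8 h, or 4.74% and 10.9% without the stored libraries numbered 3. Irf7, a transcription factor that is itself induced by interferon, went in LV from 8.90, 12.1 and 13.5 CPM at 0 h to 46.8, 50.6 and 354 CPM after 8 h, and in RV from 6.26, 10.6 and 12.3 CPM to 59.2, 90.2 and 542 CPM. It rose by 3.72 on the log2 scale in LV (edgeR adjusted p = 0.0788) and by 4.62 in RV (edgeR adjusted p = 0.0251), and by 2.08 and 2.94 without the stored libraries numbered 3. Of the 6 transcription factors, 4 rose after 8 h in each ventricle, Irf9, Irf1, Irf7 and Stat2, and 3 without the stored libraries numbered 3, where Irf1 was not called. Socs1 and Socs3, which dampen cytokine signaling, rose at both times in both ventricles, with 4.02 in LV (edgeR adjusted p = 0.0314) and 5.27 in RV (0.00457) for Socs1 after 8 h. Both stayed called in all 4 comparisons without the stored libraries numbered 3, as did Jak2. Of the 7 receptor and kinase genes, 3 rose in LV and 4 in RV after 8 h, and 1 and 2 without the stored libraries numbered 3. Jak2, which serves the interferon gamma receptor, rose in all 4 comparisons, after 8 h by 1.82 in LV (edgeR adjusted p = 0.0301) and 2.54 in RV (0.00412).

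Beyond the members, the list of ISG15 conjugation genes held 6 genes, of which 1 rose after 8 h in LV and 2 in RV. Trim25, an interferon-induced ligase, rose by 2.28 in LV (edgeR adjusted p = 0.0514) and by 2.89 in RV (0.00954). Usp16, a deubiquitinase, rose by 0.85 in RV (edgeR adjusted p = 0.00864). Uba7, the enzyme that activates ISG15 at the first step of the cascade, was not called, with 13.5, 21.3 and 27.4 CPM at 0 h and 27.4, 22.9 and 103 CPM after 8 h in LV (log2 fold change 1.31, edgeR adjusted p = 0.285). Outside the libraries numbered 3, the stored LV libraries of Uba7 lay within the range of 0 h. With the block Uba7 was called after 8 h in both ventricles, though same-numbered LV libraries of 0 and 8 h did not deviate together in every pair. Without the stored libraries numbered 3 it was not, at 0.27 in LV and 0.18 in RV. Trim25 in both ventricles and Usp16 in RV were called after 8 h without those libraries too, as 1 and 2 of the list's 6 genes. Of 20 other interferon-induced genes, 15 rose after 8 h in LV and 19 in RV, with medians of 3.602 and 4.22, and 18 were called in each ventricle without the stored libraries numbered 3. The same all-gene shares apply to these counts.

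**Figure D4:**
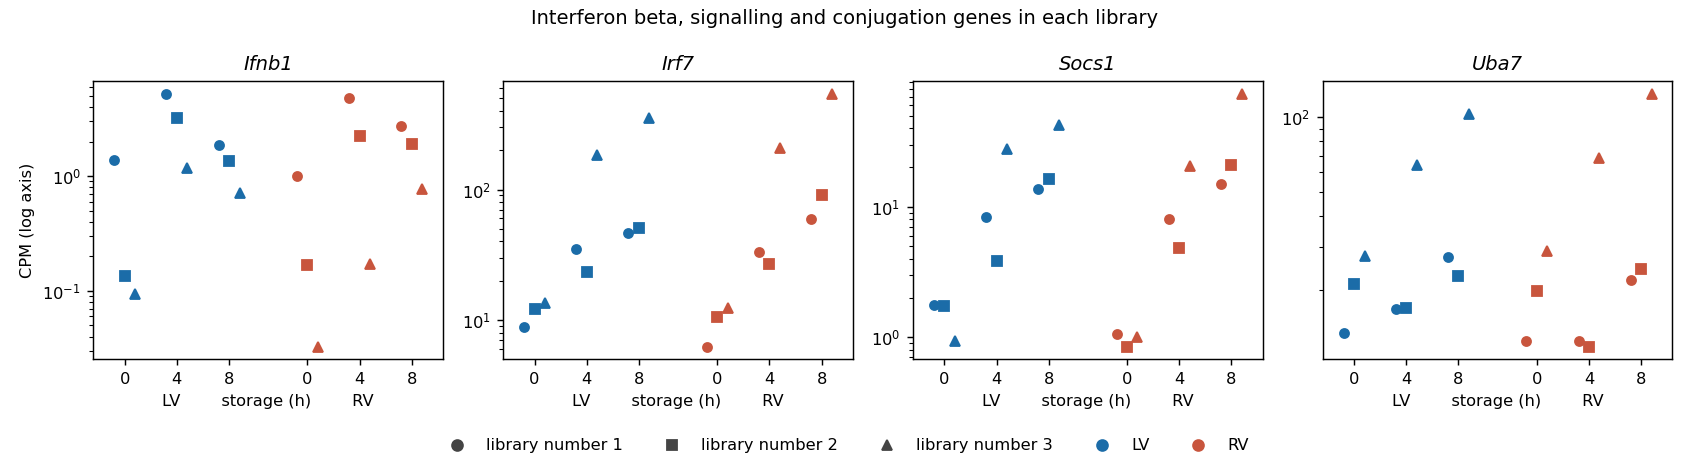
Level of Ifnb1, Irf7, Socs1 and Uba7 in each of the 18 libraries, in CPM on a log axis, by hours of storage in LV (blue) and RV (red), with 1 marker shape for each library number. In Ifnb1 the circles of number 1 are highest, at up to 5.22 CPM, while in Irf7 and Uba7 the triangles of number 3 are highest in every stored group.

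The genes whose profile over the 18 libraries was closest to the mean of the 10 members, by the root mean square difference of centered log2 CPM, were Gbp3, Gbp2, Irf7, Slfn9, Parp14, Isg20, Oasl2, Oas1a, Ifi206 and Zbp1, out of 12708 genes. Their difference ran from 0.236 for Gbp3 to 0.311 for Zbp1, and that of the members themselves from 0.161 for Usp18 to 0.946 for Bst2.

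Cell type markers were set beside these levels, and in such tissue fewer cells of a type and less RNA per cell cannot be told apart. The 6 cardiomyocyte markers summed to between 25370 and 63950 CPM, lowest in RV 8 h number 3. The 3 markers of plasmacytoid dendritic cells, known as strong interferon producers, summed to 0.225 to 0.593 CPM, and all 3 were under 1 CPM in every library. B cell markers were likewise under 1 CPM, and T cell markers summed to at most 4.22 CPM and neutrophil markers to at most 12.6 CPM. The 6 macrophage markers summed to 138, 151 and 93.1 CPM after 4 h and to 169, 134 and 107 CPM after 8 h in LV, so that the library numbered 3 was the lowest. The same held in RV, with 164, 178 and 138 CPM and with 292, 202 and 132 CPM. Hemoglobin genes were highest in the stored libraries numbered 1, at 52.0 to 194 CPM. Single markers were called beside the members by edgeR. After 8 h in LV the neutrophil genes S100a8 and S100a9 rose by 6.89 and 6.64 on the log2 scale, Hbb-bs and Hbb-bt by 3.90 and 3.80, and Myh6 fell by 0.63. After 8 h in RV the macrophage genes Adgre1, Mrc1 and Lyve1 rose by 0.91, 1.05 and 0.91 and the fibroblast gene Tcf21 by 0.98. Kcnj8 and Cspg4, of the smooth muscle and pericyte list, fell by 1.48 and 0.74. Other genes of these lists were not called and partly went the other way. Csf1r, Cd68 and Cd163 were at -0.14, 0.59 and 0.35, and Rgs5, Tagln and Myh11 at 0.58, 0.76 and 0.43. After 4 h in RV Cd3d rose by 2.25, and Tek, Kcnj8 and Cspg4 fell by 0.72, 1.32 and 0.84. There Cd4 was at -0.99, and Rgs5, Tagln and Myh11 were at 0.03, 0.14 and -0.19, not called. The part of these markers in the results was not tested.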

How the data were processed

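RNA of 18 libraries, 3 for each ventricle and storage time, was quantified by the authors with Kallisto against the GRCm38 reference. The authors deposited estimated counts per transcript, not normalized between libraries, and TPM values, scaled within a library. The estimated counts of 110203 of 111462 transcripts were summed to genes with GENCODE M21 and rounded, and 1259 transcripts were left out. Reads shared by close paralogs had been divided between them. Genes were filtered (filterByExpr), normalized by TMM and tested with edgeR 4.0.16 in R 4.3.3, on the 9 libraries of a ventricle for storage (14564 genes in LV, 14622 in RV) and on all 18 for the ventricles (15093 genes). Calls needed a fold change over 1.5 with an adjusted p under 0.1. P-values measure the spread between these libraries. The smallest correlation of deviations between same-numbered libraries was over 0.1 for the ventricles at each time (0.325, 0.466 and 0.531). It was also over 0.1 for 4 and 8 h (0.358 in LV, 0.327 in RV). For RV at 0 h with 4 and 8 h it was 0.111 and 0.165, near that cut. This set where the block is given. The members, the lists and the named genes (all members, the called or pivotal genes of the lists and the 10 closest profiles with a mean of at least 1 CPM) were chosen with earlier results of these data known. Alternatives were DESeq2 1.42.0 with and without length offsets, RLE size factors, no filter, the block, an adjusted p under 0.05, mitochondrial genes left out, a Y-linked covariate, each library left out and other libraries in the fit. Those without the stored libraries numbered 3, with Y-linked expression only and without single pairs were added after seeing the data. The script was tested on simulated data. A gene of the lists is not reported here.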

Additional observations from a re-analysis of the deposited data

Results flagged for a closer look

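The change from 0 h to 8 h differed between LV and RV in 4 of the 10 genes by the interaction test with the pair as a block. Of all tested genes 4.72% were called in the same direction. The log2 difference, LV minus RV, was -1.04 for Isg15, -1.09 for Mx2, -0.80 for Rsad2 and -0.79 for Usp18, so that the increase was larger in RV for each. Within same-numbered pairs, the RV to LV ratio of Isg15 and Mx2 was under 1 in 3 of 3 pairs at 0 h and above 1 in 3 of 3 pairs at 8 h. The share of all genes with such ratios was not computed. Without the block none of the 4 passed in edgeR, and 0 of the 10 had an unadjusted p under 0.05. Whether LV and RV libraries of 1 number came from 1 heart is not given by the labels, and the pairing rests on the shared deviations of the libraries.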

How the results depend on the processing

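Fitted levels of the 10 genes were higher than at 0 h in all 772 values recomputed for the 4 comparisons with 0 h, of which 603 stayed on the same side of the threshold, 90 lost the call and 79 gained it. The number called moved more. After 4 h in LV, 1 gene was called, against 0 at an adjusted p under 0.05, with RLE size factors or without mitochondrial genes, 2 without the filter, with all 18 libraries, or with DESeq2 with or without length offsets, 4 with the Y-linked covariate, 5 with Y-linked expression only and 7 without the stored libraries numbered 3. After 8 h in LV the 6 became 1 at an adjusted p under 0.05 and 10 with the covariate, with Y-linked expression only or without the libraries numbered 3. After 4 h in RV the 4 became 2 at an adjusted p under 0.05 and 7 with DESeq2, with or without offsets, and after 8 h in RV the 10 became 6 at an adjusted p under 0.05. With 1 library left out, the counts ran from 0 to 6 and from 0 to 10 in LV and from 0 to 8 and from 3 to 10 in RV, after 4 and 8 h. Calls over all genes then ran from 14 to 669 and from 130 to 1422 in LV. In RV they ran from 235 to 1219 and from 1025 to 2625.

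Same-numbered LV libraries of 0 h did not deviate with those of 4 h or 8 h in every pair (smallest correlation 0.040 and -0.019), and the replicate block gave 4 calls after 4 h and 10 after 8 h there, where it called 562 and 1179 of all 14564 genes higher. The block gave 2 calls for LV against RV at 8 h, and 1 to 5 with 1 pair left out (2 without any pair of 0 or 4 h, or the 8 h pair numbered 3). For the interaction at 8 h it gave 4, and 2, 3, 4, 5 or 6 with 1 pair left out.

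Without the block, leaving out the RV 8 h library numbered 3 turned the sign of the ventricle difference, while the LV library numbered 3 stayed in the fit. The cause was not tested. With 1 library left out the interaction at 8 h ran from -2.37 to 0.25 for Isg15, -2.85 to 0.54 for Mx2, -2.84 to 1.20 for Rsad2 and -2.89 to 1.19 for Usp18, and the LV minus RV level at 8 h from -2.16 to 0.47 for Isg15 and -2.41 to 0.98 for Mx2. Of the 10 closest profiles 6 remained when scaled to unit SD. Precision is limited by 3 libraries a group and, for Mx1 and Ifnb1 at 0 h, by few counts.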
